A study of Sus scrofa with 4 samples.

Results

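The enzymes described here carry glucose to lactate: HK1, HK2, GPI, PFKM, ALDOA, GAPDH, PGK1, ENO1, LDHA and LDHB. Members were chosen by name, as every non-control array probe whose annotated gene was 1 of these 10 symbols. The rule used no measured value. It found 29 probes for 8 of the 10 enzymes, among 43589 probes and 34842 gene names in the whole series, and matched no probe to ALDOA or ENO1, which are not analysed here. The probes numbered 2 for HK1, 1 for HK2, 3 for GPI, 2 for PFKM, 2 for GAPDH, 6 for PGK1, 1 for LDHA and 12 for LDHB.

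PIP cells are a porcine intramuscular preadipocyte line, started from the longissimus muscle of a Duroc pig. The study asked how gene expression changes when they are differentiated into mature adipocytes (pMA), and when pMA meet serotonin or the inflammatory cytokine TNF-α. There were 4 groups with 1 array each: PIP cells without stimulation, unstimulated pMA, pMA with 100 µM serotonin for 12 h, and pMA with 2.5 µg/mL TNF-α for 12 h. All 3 pMA groups had spent 4 days in a medium with insulin (50 ng/mL), dexamethasone (0.25 µM), octanoate (2 mM) and oleate (200 µM), so each difference from PIP cells includes these agents. RNA was pooled within a group, so the spread between cultures is unknown and no test was made.

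Glycolysis splits glucose into pyruvate in the cytosol and yields ATP and NADH. Hexokinase traps glucose as glucose 6-phosphate, phosphofructokinase commits it to the pathway, and lactate dehydrogenase turns pyruvate into lactate and returns the NAD that GAPDH needs. In fat cells the pathway also feeds glycerol 3-phosphate and acetyl-CoA into triglyceride, while glucose 6-phosphate can leave for the pentose phosphate pathway, which makes the NADPH used to build fatty acids.

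Each array probe was a 60-base DNA oligonucleotide that matches the sense strand of its mRNA. The stretches below are those on which the results turn, with their first base counted in the mRNA that the array annotation gives. Both HK1 probes start at base 3549 and share 59 of 60 bases, and they serve as a near repeat of each other. The capital marks the position where they differ, C25T, counted from the first base of the probe.
HK1, probe A_72_P352783, bases 11 to 40: atcgcttttgtgagCcatgtcgtatgacct
HK1, probe A_72_P541893, bases 11 to 40: atcgcttttgtgagTcatgtcgtatgacct
HK2 and LDHA, the members with the widest ranges, rest on a single probe each, which start at bases 3055 and 1314.
HK2, probe A_72_P071346, bases 1 to 30: catgtccaagtataatcctacaggatgagg
LDHA, probe A_72_P086171, bases 31 to 60: tctcaagaggcacccgggccagtgttgcag
For LDHB, a pair of probes from upstream in the mRNA (starts at bases 585 and 972) and a pair from its 3′ end (starts at bases 1229 and 1235) stand for the groups of probes that gave different ratios. Capitals mark AATAAA, the hexamer that commonly precedes the site of polyadenylation.
LDHB upstream, probe A_72_P522171: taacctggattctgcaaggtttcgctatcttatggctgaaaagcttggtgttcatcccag
LDHB upstream, probe A_72_P662846: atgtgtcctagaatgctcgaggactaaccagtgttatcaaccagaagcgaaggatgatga
LDHB 3′ end, probe A_72_P007566, bases 31 to 60: aagcaagtccttgaacaAATAAAgttaact
LDHB 3′ end, probe A_72_P592974, bases 31 to 60: gtccttgaacaAATAAAgttactatcatag

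A level below is log2 of the intensity minus the array's own 75th percentile of intensity, and a ratio is the difference of 2 such levels. The 75th percentiles lay between 479 and 566 intensity units, and 56.5% to 66.0% of probes were well above background on an array. Spots of the same probe repeated on an array had a pooled SD of 0.11 to 0.14, which gives a log2 ratio an SD of 0.18 to 0.20, and the scanner software's own error model gave member ratios an SD of 0.20 to 0.23. Both cover the noise of spots and say nothing about the spread between cultures. Of the adipocyte markers, 8 or 9 of 11 were well above background on each array. ADIPOQ and PLIN1 were not on the 3 pMA arrays, and CEBPA was on the TNF-α array alone. The markers' summed level, relative to the 75th percentile, went from 3.20 in PIP cells to 16.3 in pMA, 39.5 after serotonin and 22.9 after TNF-α. PLIN2 gave the largest part of this sum on the 3 pMA arrays (log2 levels 3.42, 4.42 and 3.50). The markers did not move together after serotonin, when 5 of 8 with a ratio lay above 0 (median 0.21), beside 51.2% of all gene names. LPL rose (2.41), CD36 rose (1.47) and FABP4 fell (-2.77). After TNF-α all 9 markers with a ratio lay above 0 (median 0.48), beside 50.7% of all gene names. For differentiation 8 of 9 did, beside 58.1%.

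All 29 member probes were well above background on all 4 arrays, and none was saturated or marked as an outlier. The brightest probe over the 4 arrays represents a gene, and its other probes are given as a check. Ranked by spot brightness over all gene names, the representing probes of 6 members lay at percentiles 98.7 to 99.9, that of PFKM at 90.9 and that of HK2 at 67.1. The log2 range over the 4 arrays had a median of 0.45 among the members, from 0.22 for GAPDH to 1.46 for LDHA. For the 16421 gene names well above background on all arrays the median range was 0.64, with quartiles at 0.42 and 0.97.

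In pMA the enzymes lay close to their PIP levels. None of the 8 differed 2-fold between pMA and PIP cells in either direction, while 9.94% of all gene names with a ratio rose and 3.56% fell by that much. The median ratio was 0.01 for the members and 0.12 for all 18632 gene names, and the median absolute ratio was 0.18 and 0.40. Of the 1743 gene names in the brightest 5%, where 6 of the 8 members belong, 51 rose and 39 fell 2-fold, and their median absolute ratio was 0.28. The zero of these ratios depends on the scaling, since scaling to the array median moved the median of all gene names by -0.35 and that of the members to -0.34. HK1 and PFKM lay above 0 and LDHB below 0 under all 9 processing settings, and the sign of the other 5 depended on the setting. In 2 of these settings, the filters on dim probes, member values cannot differ from those given. Because the RNA came from whole cultures, fewer cells of a kind and less RNA per cell cannot be told apart.

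After serotonin 6 of the 8 enzymes lay below their level in unstimulated pMA, LDHA and HK1 furthest. Of all gene names 51.2% lay above 0 in this comparison. The median ratio to unstimulated pMA was -0.23 for the members and 0.01 for all 19089 gene names. No member passed 2-fold, against 2.08% of all gene names that rose and 4.74% that fell. The ratios of HK1, GPI, GAPDH, PGK1 and LDHA lay below 0 and that of LDHB above 0 under all 9 settings, and for HK2 and PFKM the sign depended on the setting. Quantile normalization brought the member median to -0.040. Among the brightest 5% of gene names the median was -0.08, and 15 of the 1743 rose and 77 fell 2-fold. The paper reports significant cell death that depended on the serotonin dose. It came from a dose experiment in which fat was measured 4 days after stimulation, whereas these arrays were made at 12 h. The part of cell death in these ratios was not tested.

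After TNF-α the enzymes did not share a direction. HK2 was the 1 member of 8 that rose at least 2-fold, beside 2.21% of all gene names, and none fell, beside 1.35%. The median ratio was 0.06 for the members and 0.01 for all 19776 gene names. HK2, GPI, LDHA and LDHB lay above 0 and PFKM and PGK1 below 0 under all 9 settings, and HK1 and GAPDH changed sign between settings. The unstimulated pMA array enters both this comparison and that with serotonin, so its own error moves both.

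Serotonin and TNF-α were also set against each other, which leaves the unstimulated array out. HK2 and LDHA were at least 2-fold lower after serotonin than after TNF-α, 2 of 8 members beside 5.07% of all gene names, and none was 2-fold higher, beside 1.83%. The median ratio was -0.36 for the members and -0.04 for 21856 gene names. In this comparison HK1, HK2, GPI, PGK1 and LDHA lay below 0 and PFKM and LDHB above 0 under all 9 settings, although 3 of the 12 LDHB probes lay below 0 here (-0.06 to 0.23).

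**Figure D1:**
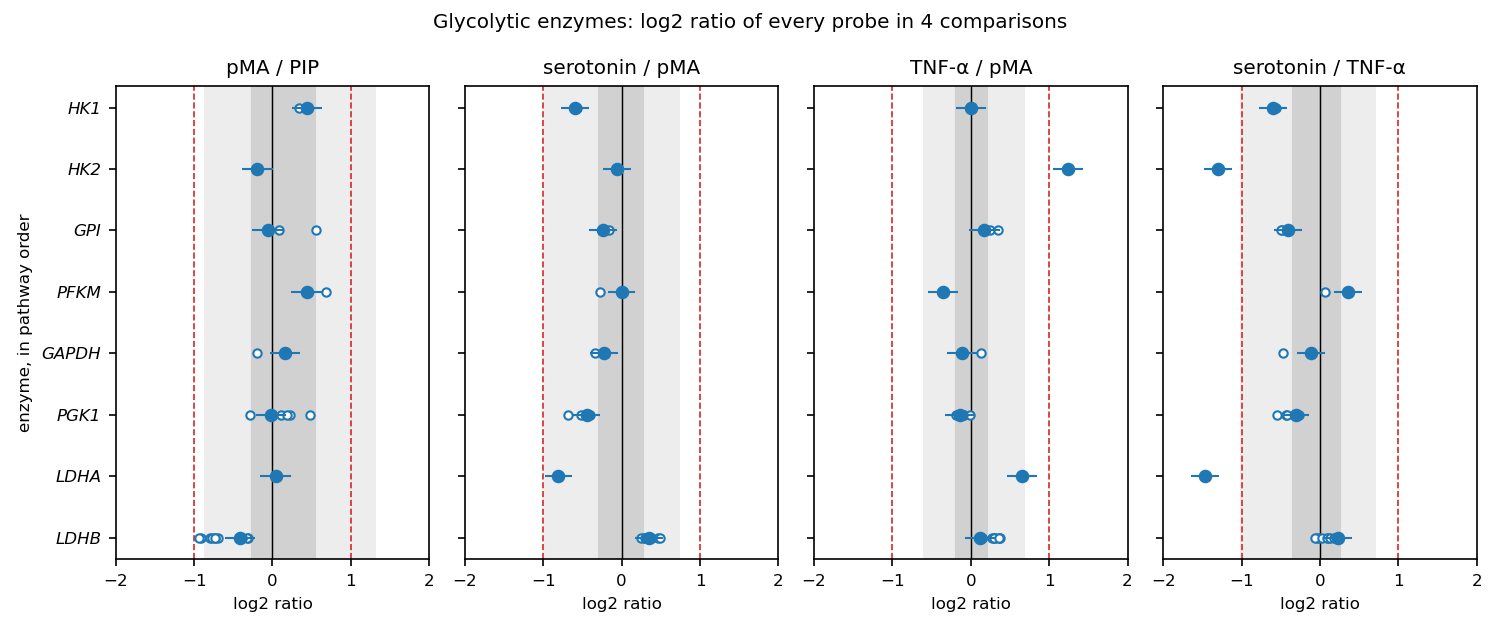
Log2 ratio (x axis) of each enzyme (y axis, in pathway order) in 4 comparisons. Filled points are the representing probes with bars of 1 SD from repeated spots, open points are the other probes, dark and light grey bands hold the middle 50% and 90% of all gene names, and dashed red lines mark 2-fold. HK2 at 1.24 lies past 2-fold after TNF-α, and LDHA at -1.46 and HK2 at -1.30 lie past it between serotonin and TNF-α.

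The hexokinases, which catalyse the first step, differed from each other in where they moved. HK1, the housekeeping hexokinase of most tissues, had a level of 6.75 in PIP cells, 7.19 in pMA, 6.59 after serotonin and 7.19 after TNF-α. It was thus as high with TNF-α as without stimulation, and lower on the PIP and serotonin arrays. Its ratio was 0.44 for pMA against PIP cells, -0.60 for serotonin and 0.00 for TNF-α against pMA. The second HK1 probe gave 0.34, -0.56 and -0.01, within 0.10 of the first in each comparison.

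HK2, the insulin-responsive hexokinase of muscle and fat, had a level of -2.45 in PIP cells, -2.65 in pMA, -2.71 after serotonin and -1.41 after TNF-α. The first 3 arrays lay close together, and the TNF-α array stood above them. Its probe is the dimmest of the members, with intensities of 94.1, 76.4, 86.6 and 211 in the same order, or 3.97 to 14.3 times the faintest intensity well above background. HK2 was 2.36-fold higher after TNF-α than in pMA (log2 ratio 1.24) and 2.46-fold lower after serotonin than after TNF-α (-1.30). Both calls were lost under normexp background correction, which adds an offset of 50 to each intensity and gave 0.77 and -0.88. The ratio of HK2 to HK1 moved by 1.24 on the log2 scale from pMA to TNF-α. It moved by 0.77 to 1.24 over the 9 settings, with the lowest value under normexp. Settings that only rescale an array or filter dim probes cannot change this ratio.

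GPI, which converts glucose 6-phosphate to fructose 6-phosphate, had levels of 6.76, 6.70, 6.46 and 6.88 in PIP cells, pMA, serotonin and TNF-α. The serotonin array was the lowest and the TNF-α array the highest. All 3 probes were below 0 after serotonin (-0.25 to -0.16) and above 0 after TNF-α (0.17 to 0.34). The representing ratios, -0.24 and 0.17, are close in size to the SD of a ratio between repeated spots. For differentiation the probes did not share a sign: the one that starts at base 790 gave 0.55, and those at bases 1652 and 1918 gave 0.08 and -0.06.

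PFKM, the muscle-type phosphofructokinase and so the committing step, had levels of 2.37, 2.81, 2.81 and 2.45. The unstimulated and serotonin arrays were level with each other, and PIP cells and TNF-α lay lower. Its ratios were 0.44 for differentiation, 0.00 for serotonin and -0.35 for TNF-α. The second probe gave 0.68, -0.28 and -0.35, so the probes share the direction for differentiation and TNF-α but not for serotonin.

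GAPDH oxidises glyceraldehyde 3-phosphate and is widely used as a reference gene. Its representing probe read 9.08, 9.23, 9.01 and 9.12 on the 4 arrays. This range of 0.22 lay at percentile 5.58 of the 16421 gene names well above background on all arrays. The second probe spanned 0.54, from 7.92 after serotonin to 8.46 in PIP cells. The probes disagreed in sign for differentiation (0.16 and -0.20) and TNF-α (-0.11 and 0.13), and lay at -0.22 and -0.34 for serotonin. None of these reached 2-fold, and processing settings moved the representing ratio for differentiation between -0.19 and 0.46. Against ACTB, the other common reference, GAPDH moved by -0.27, 0.07 and 0.07 in the 3 comparisons with their representing probes, though the 4 ACTB probes themselves ran from -1.71 to -0.29 after serotonin.

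PGK1, which makes the first ATP of the pathway, had levels of 7.39 in PIP cells, 7.37 in pMA, 6.93 after serotonin and 7.24 after TNF-α. The serotonin array was the lowest on all 6 probes. Serotonin ratios ran from -0.69 to -0.41 over these probes, and TNF-α ratios from -0.19 to -0.01. The representing ratios were -0.45 and -0.14. For differentiation 4 probes were above 0 and 2 below, from -0.29 to 0.47, around a representing ratio of -0.02.

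**Figure D2:**
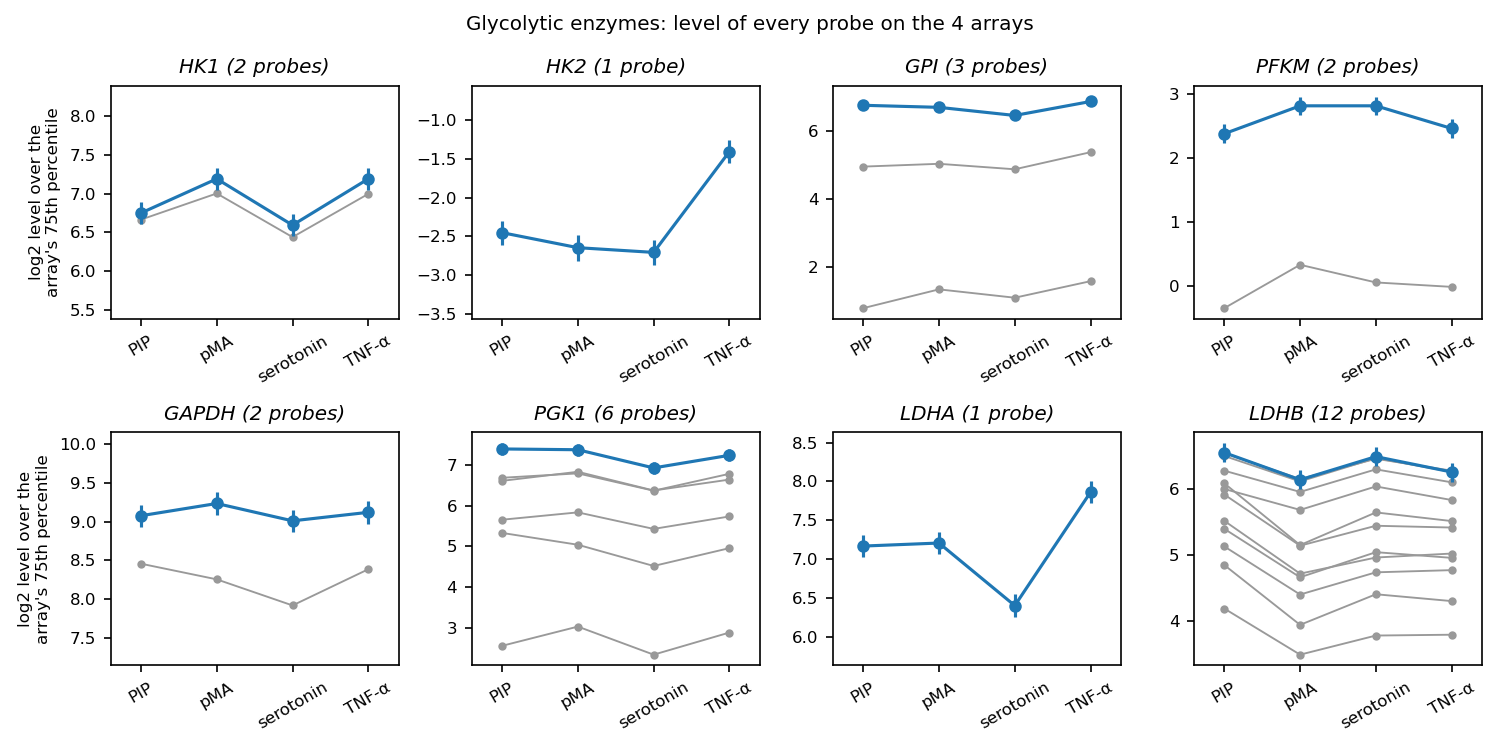
Log2 level over the array's 75th percentile (y axis) of every probe of each enzyme on the 4 arrays (x axis), with 1 line a probe. Blue is the representing probe with bars of 1 SD from the scanner software, grey the other probes, and each panel has its own axis position. LDHA is lowest with serotonin at 6.40 and highest with TNF-α at 7.86, HK2 stands out on the TNF-α array alone, and all 12 LDHB probes are lowest in pMA.

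The lactate dehydrogenases gave the clearest pattern, because LDHA and LDHB parted after serotonin. LDHA encodes the M subunit, which favours lactate production, and LDHB the H subunit, which favours the return of lactate to pyruvate. LDHA had a level of 7.17 in PIP cells, 7.21 in pMA, 6.40 after serotonin and 7.86 after TNF-α. PIP cells and pMA lay close together, with serotonin below and TNF-α above them. The corresponding intensities were 74078, 70682, 47767 and 130125. Ratios were 0.04 for differentiation, -0.81 (1.75-fold lower) for serotonin and 0.66 (1.58-fold higher) for TNF-α, none past 2-fold. Between serotonin and TNF-α LDHA was 2.76-fold lower, and this ratio of -1.46 lay between -1.47 and -1.26 over the 9 settings. Its range over the 4 arrays was at percentile 90.0 of the 16421 gene names well above background on all arrays. No second probe was there to check it.

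LDHB had a level of 6.56 in PIP cells, 6.14 in pMA, 6.50 after serotonin and 6.26 after TNF-α. The pMA array was the lowest on all 12 probes, and PIP cells the highest on the representing one. Its ratios were -0.41, 0.35 and 0.12 for differentiation, serotonin and TNF-α. All 12 probes were below 0 for differentiation and above 0 for both stimulations. A pair of LDHB probes with identical 60 bases differed by at most 0.03 in any comparison.

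The difference between LDHA and LDHB is free of any scaling constant. From pMA to serotonin the ratio of LDHA to LDHB fell by 1.16 on the log2 scale, or 2.23-fold. It lay between -1.30 and -1.05 when each of the 12 LDHB probes was set against the LDHA probe. Over the processing settings it lay between -1.16 and -1.15, but only quantile normalization, normexp and the median over probes can move it. From pMA to TNF-α it moved the other way by 0.54 (0.29 to 0.54 over the LDHB probes). Between serotonin and TNF-α it differed by -1.70, which is 3.24-fold. For differentiation it was 0.45, with 0.36 to 0.98 over the probes.

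LDHB probes gave different ratios along the mRNA. The 7 upstream probes, with starts from base 323 to 972, read -0.94 to -0.70 for pMA against PIP cells (median -0.77). The 5 probes at the 3′ end, with starts from 1197 to 1235, read -0.41 to -0.32 (median -0.39), so the groups did not overlap. TNF-α separated them as well, at 0.28 to 0.37 upstream and 0.12 to 0.15 at the 3′ end, whereas serotonin did not (0.24 to 0.49 and 0.31 to 0.36).

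The 3′ probes were also the brighter ones. Intensities in pMA ran from 5397 to 17054 upstream and from 24675 to 34132 at the 3′ end, and the groups did not overlap in brightness on the serotonin and TNF-α arrays either. On the PIP array they did, with 35135 for the probe at base 972 and 33114 for that at base 1197. The part of brightness in the split was not tested. All 7 upstream probes but only 1 of the 5 at the 3′ end had a reading frame without a stop, and AATAAA was in 3 of the 5 and in none of the 7. Those 3 probes cover 1 site, since a pair of them has the same sequence and the other starts a few bases on. Among all 43603 probes of the array 9.60% held the hexamer on the sense strand and 13.4% on either strand. Of the Ensembl transcripts listed for the probes, 1 was listed for all 12 and another for 6 of the 7 upstream ones, and the probe at base 972 was listed for the first alone. RefSeq has a pair of genes under the symbol LDHB in the pig, and whether the other copy adds to these signals was not tested.

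The 3′ probe minus the 5′ probe was taken for 819 gene names with probes at least 300 bases apart, 4 members among them. For differentiation this difference had a median of -0.13 (quartiles -0.50 and 0.21). LDHB, at 0.31, lay above the upper quartile. GPI, at -0.61, lay below the lower one, and PGK1 at -0.29 and PFKM at -0.24 lay between. After TNF-α the median was -0.02 (quartiles -0.13 and 0.12), and LDHB, at -0.18, lay somewhat below the lower quartile. The size of the LDHB ratio therefore depended on the probe.

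**Figure D3:**
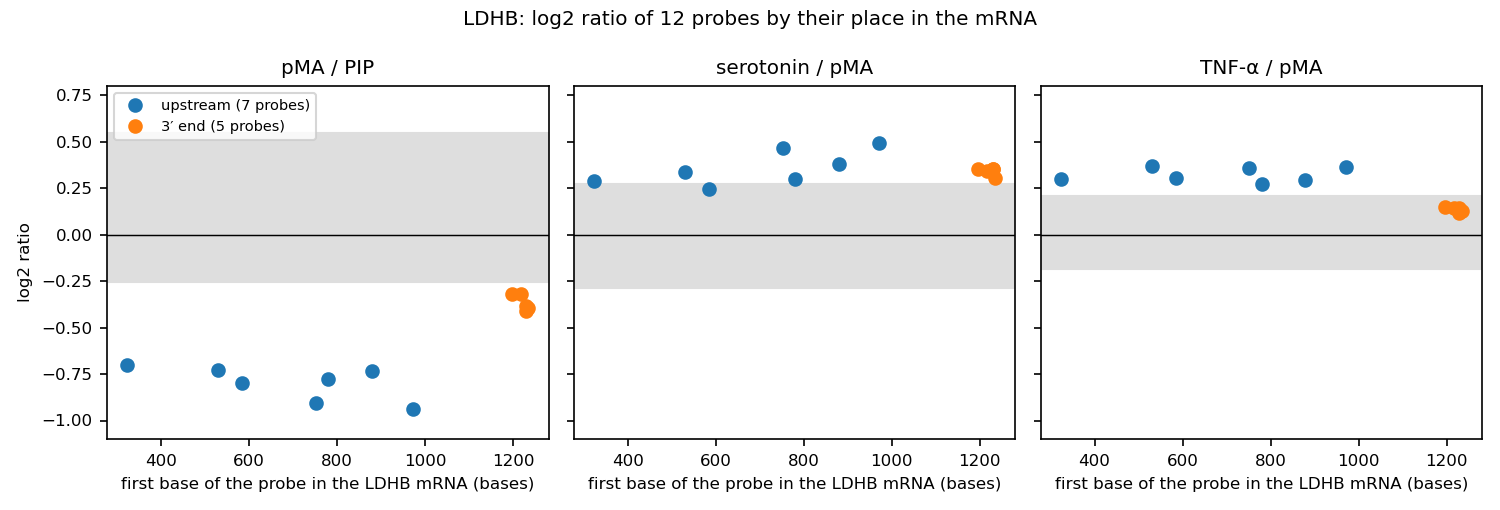
Log2 ratio (y axis) of the 12 LDHB probes against the base of the mRNA at which each starts (x axis) in 3 comparisons. Blue points are the 7 upstream probes, orange points the 5 at the 3′ end, and the grey band holds the middle 50% of all gene names. The upstream probes lie at -0.94 to -0.70 for pMA against PIP cells and the 3′ probes at -0.41 to -0.32.

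Other enzymes of glycolysis, from a list of 21, had 10 genes on the array, and 5 had a ratio after serotonin. Of these 4 lay below 0 and 1 rose 2-fold, while 51.2% of all gene names lay above 0 and 2.08% rose 2-fold. The list's median of -0.47 stayed between -0.50 and -0.32 over the settings. TPI1, which interconverts the triose phosphates, lay at -0.47 with 5 probes from -0.51 to -0.41. PKM, the pyruvate kinase of most tissues, lay at -0.68 with 4 probes from -0.83 to -0.59. ENO3 lay at -0.53, with 3 probes from -0.53 to 0.00, and PGAM2 at -0.18. After TNF-α TPI1 lay at 0.41 with all 5 probes above 0, and PKM at 0.21 with 2 of its 4 probes above 0 and 2 below. TPI1, PKM, PGK1 and HK1 thus each had all of their probes below 0 after serotonin.

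ENO2, the neuronal enolase, ran opposite to these. Its only probe had intensities of 17.3 in PIP cells, where it was too dim to stand well above background, 37.9 in pMA, 113 after serotonin and 22.0 after TNF-α. In pMA ENO2 was 2.36-fold above its dim PIP signal, a plain ratio and no lower bound (log2 0.46 to 1.54 over the settings). It rose a further 2.53-fold with serotonin (log2 ratio 1.34), and fell with TNF-α (-1.01). These are faint signals. The call for differentiation was lost under median scaling, quantile normalization and normexp, that for serotonin under normexp (0.55), and that for TNF-α under normexp (-0.40) and spike-in scaling. ALDOC, an aldolase, was well above background in PIP cells and not in pMA, at least 7.86-fold lower (log2 bound -2.97, and -4.93 to -1.49 over the settings).

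Around pyruvate, 12 of 17 listed genes were on the array, and PDK4 moved most. PDK4 phosphorylates pyruvate dehydrogenase and so keeps pyruvate from oxidation. Its representing probe had intensities of 3.81 in PIP cells, 384 in pMA, 1708 after serotonin and 160 after TNF-α. PDK4 rose at least 28.1-fold with differentiation (log2 bound 4.81), rose again with serotonin (log2 ratio 1.91, 9 of 9 probes above 0) and fell with TNF-α (-1.49, 8 of 8 probes below 0). These calls held under every setting that gave a ratio, but the size for differentiation ran from 2.82 to 6.76 over the settings and from 1.02 to 4.81 over 8 probes. PDK1, another kinase of the same complex, lay at -0.71, -0.90 and 0.01. Of the lactate transporters, SLC16A7 was well above background with TNF-α and not in unstimulated pMA (at least 2.16-fold higher, a call lost under normexp), and SLC16A1 lay at 0.42 after serotonin and 0.60 after TNF-α.

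The genes of the pentose phosphate pathway lay above 0 after serotonin, where most of the glycolytic enzymes lay below. Of 8 listed genes 4 had a probe. All 4 lay below 0 in pMA against PIP cells (median -0.50) and above 0 after serotonin (median 0.77). Beside them, 58.1% of all gene names lay above 0 for differentiation and 51.2% after serotonin. The 2 TKT probes differed in sign for differentiation (-0.23 and 0.17). Over the 9 settings the differentiation median ran from -0.85 to -0.20, and the number of genes below 0 was as low as 3. Serotonin ratios were 0.98 for PGD, the NADPH-producing dehydrogenase, 0.95 for RPIA, 0.59 for TKT and 0.59 for TALDO1, none past 2-fold. After TNF-α they lay between -0.16 and 0.06. In serotonin against TNF-α RPIA was past 2-fold (1.11) and PGD was at 0.99. All 4 were above 0 after serotonin under each of the 9 settings.

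**Figure D4:**
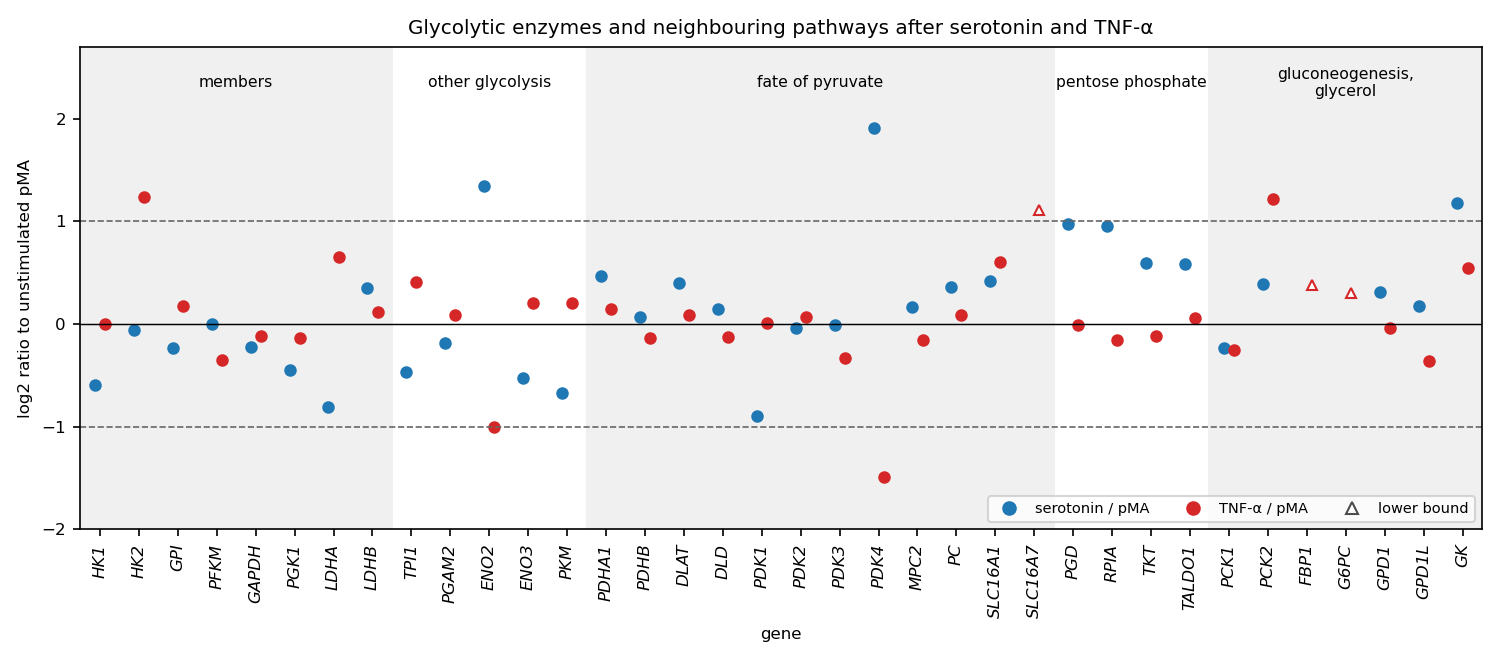
Log2 ratio to unstimulated pMA (y axis) after serotonin (blue) and TNF-α (red) for each gene with a ratio (x axis), grouped by pathway. Dashed lines lie at 2-fold. Open triangles mark genes not well above background in unstimulated pMA, which are lower bounds unless the pMA signal was kept as it was. LDHA, HK1, TPI1 and PKM lie below 0 after serotonin, the 4 pentose phosphate genes lie between 0.59 and 0.98, and PDK4 is at 1.91 after serotonin and -1.49 after TNF-α.

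In gluconeogenesis and glycerol use, PCK2, the mitochondrial PEP carboxykinase, fell with differentiation (-1.35) and rose with TNF-α (1.22), with all 3 of its probes in the same direction each time. GK, glycerol kinase, rose with serotonin (1.18), a call lost under normexp and over the median of its probes. Of the glycogen genes GBE1, the branching enzyme, rose with differentiation (1.17), except that it lay at 0.82 after median scaling. Among 10 measured genes of the hypoxia response, which include the factors HIF1A, EPAS1 and ARNT, 8 lay above 0 after TNF-α, beside 50.7% of all gene names, and 4 after serotonin, beside 51.2%. For differentiation 6 lay above 0 and 4 below, beside 58.1% of all gene names above 0. ADM (1.71) and NDRG1 (1.15) rose 2-fold with differentiation, though NDRG1 stayed under 2-fold with median scaling and normexp. P4HA1 fell with serotonin (-1.07), but its 8 probes ran from -1.07 to 0.07 and the call was lost over their median and with spike-in scaling. The 2 probes of HIF1A differed in sign both after serotonin (-0.22 and 0.12) and after TNF-α (0.10 and -0.04).

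Cell type markers also moved with the stimulations. After serotonin 7 of 8 skeletal muscle markers with a ratio lay below 0 (median -0.65), and their summed level was 659 in pMA and 177 after serotonin, against 644 in PIP cells and 612 after TNF-α. ACTA1 carried most of this sum, and its 11 probes with a serotonin ratio ran from -2.63 to -0.26. MYH1, MYH7 and TNNT3 were faint, at 31.3, 43.5 and 43.7 in pMA, where the faintest intensity well above background was 19.2. MYOD1 and MYF5 were not well above background on any array. PAX7 and MYOG, also genes of muscle precursors, were well above background on all 4, at 0.39 and -0.01 after serotonin. For pMA against PIP cells all 8 muscle markers with a ratio lay above 0 (median 0.64), beside 58.1% of all gene names. Fibroblast markers had 4 of 6 below 0 after either stimulation, and their summed level lay between 718 and 952. For comparison, 51.2% of all gene names lay above 0 after serotonin and 50.7% after TNF-α. Endothelial markers were well above background for 1 or 2 of 5 genes, immune markers for 2 of 4 and erythroid markers for 0 of 2. The part of these shifts in the enzyme ratios was not tested.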

How the data were processed

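Per the labels, cyanine-3 cRNA was made from 200 ng of total RNA and hybridised to 1-color porcine arrays, 4 on 1 slide, and read with Agilent Feature Extraction 10.7.3.1. The study's methods name a mouse array and a two-color array in places, whereas the deposited files describe a porcine array in 1 color. The scanner files deposited by the authors hold the processed signal of each spot as an intensity, background-subtracted and not scaled between arrays, with marks for spots well above background. The deposited matrix holds the same intensity as a ratio to 1 constant per array on a linear scale.

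From these, log2 intensity minus the array's 75th percentile over non-control spots was computed in Python 3.11.15 with pandas 2.3.3, without outlier spots. Where only 1 array was well above background, the dimmer one was raised to the faintest such signal where it lay below it, which gives a bound. A dimmer signal above that faintest one was kept, and its ratio is then no bound. Calls used the 2-fold cutoff of the methods. With 1 array of pooled RNA a group, no test was made, and the number of arrays limits the precision. The ratio script was tested on simulated data. Alternatives were median scaling, quantile normalization and normexp (offset 50) with limma 3.58.1 in R 4.3.3, the matrix values, no filter on dim probes, probes well above background on all 4 arrays, the median over a gene's probes, a 1.5-fold cutoff and, chosen after seeing the data, spike-in scaling. The members and gene lists were chosen with earlier results of these data known, and 1 listed gene is not reported here. Named genes were all members and, of the other pathway lists, those at least 2-fold apart in any comparison; TPI1, PKM, ENO3, PGAM2, PDK1, SLC16A1, HIF1A, ACTB, EPAS1, ARNT, the remaining pentose phosphate genes and the cell type markers named were added after their values were seen. The files name no genome build, so no coordinates are given.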

Additional observations from a re-analysis of the deposited data

How the results depend on the processing

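The 2 filters on dim probes cannot move the members, whose probes were all well above background. Of 192 values of single enzymes under the other alternatives, 161 moved by less than the SD of repeated spots, 31 moved by more, and 171 kept their sign. Part of the 161 was fixed in advance. HK2 and LDHA have 1 probe each, so the median over probes cannot move them. The matrix values differ from the main ones by 1 constant per array, which shifts all enzymes of a comparison by the same small amount. The median over the members for pMA against PIP cells, 0.01, became -0.34 after median scaling and 0.32 after spike-in scaling, an alternative chosen after seeing the data. Both shifts are common to all gene names. Quantile normalization moved the median from -0.23 to -0.040 for serotonin and from -0.36 to -0.17 for serotonin against TNF-α; the cause was not tested. At a 1.5-fold cutoff 2 enzymes passed after serotonin and 2 after TNF-α, in place of 0 and 1. No share of all gene names at that cutoff is at hand, so these counts have no background. Under normexp 0 passed after TNF-α and 1 in serotonin against TNF-α, in place of 1 and 2, because HK2 dropped below 2-fold. With normexp 1.02% of all gene names rose and 0.39% fell 2-fold after TNF-α. In serotonin against TNF-α 0.719% were higher and 2.46% lower. No paired analysis was possible because each group has 1 array. HK2, ENO2 and other probes within a few times the faintest intensity well above background are the least certain.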
